A study of Mus musculus with 12 samples.

Results

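The 9 genes described here belong to B cells, to the antibody-secreting plasma cells that B cells become, and to the epithelial transport of secreted antibody. They were Jchain, Mzb1, Tnfrsf17, Cd79a, Cd79b, Ms4a1, Cr2, Pou2af1 and Pigr, and every probe set annotated with exactly 1 of these symbols was taken. This gave 11 of 45101 probe sets, with 2 probe sets each for Ms4a1 and Pigr, and 9 of the 17569 genes tested. All 11 probe sets passed the filter on low signals.

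RNA of the left lung from young adult male mice was measured on Affymetrix 3′ expression arrays, with a separate mouse on each. Wild-type mice (WT, stock B6129PF2/J) and mice lacking the p50/p105 subunit of NF-κB (Nfkb1KO, stock B6;129P-Nfkb1tm1Bal/J) breathed filtered air or O3 at 0.3 ppm for 48 h, with 3 mice in each of the 4 groups WT-Air, WT-O3, Nfkb1KO-Air and Nfkb1KO-O3. The deletion is carried by every cell of the animal, and the WT mice came from a separate hybrid stock and were not described as littermates. The comparisons ask which of these genes differ with Nfkb1 in air and after O3, and how O3 changes them in each genotype.

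A B cell recognises antigen through a membrane immunoglobulin, and Cd79a and Cd79b are the signalling chains that sit beside it. Once activated, B cells can become plasma cells, which stop displaying the receptor and secrete antibody instead. J chain links IgA into dimers and IgM into pentamers, and the polymeric immunoglobulin receptor Pigr on airway epithelium binds these J chain-containing polymers and carries them to the mucosal surface. NF-κB p50, made from the Nfkb1 product p105, is among the factors that B cells use when they are activated.

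The stretch before the transcription start of Jchain, the member that differed most between genotypes, and that of Cd79a, a B cell receptor chain that differed little, are shown for comparison. They are the 250 bases before the RefSeq start, from assembly GRCm38.p6, printed 5′ to 3′ on the strand of the gene, which is chr5:88527898-88528147 (minus strand) for Jchain and chr7:24897247-24897496 (plus strand) for Cd79a. Capitals mark the letters CAGGTG, the E box bound by E2A (Tcf3), and GGAAGT, an Ets core, both factor families of the B lineage.
Jchain: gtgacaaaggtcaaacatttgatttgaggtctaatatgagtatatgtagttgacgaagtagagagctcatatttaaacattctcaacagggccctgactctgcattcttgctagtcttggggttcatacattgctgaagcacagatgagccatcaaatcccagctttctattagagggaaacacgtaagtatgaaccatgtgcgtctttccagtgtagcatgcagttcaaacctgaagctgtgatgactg
Cd79a: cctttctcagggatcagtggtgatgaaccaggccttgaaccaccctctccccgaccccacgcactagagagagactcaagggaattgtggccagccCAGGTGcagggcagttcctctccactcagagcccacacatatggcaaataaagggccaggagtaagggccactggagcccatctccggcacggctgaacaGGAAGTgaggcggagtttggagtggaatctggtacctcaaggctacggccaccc
The Jchain stretch held neither motif on either strand, whereas in the Cd79a stretch CAGGTG began 154 bases and GGAAGT 54 bases before the start. Promoters of 6 members (Pigr, Cr2, Jchain, Cd79a, Pou2af1 and Tnfrsf17) were in the table of 32851 RefSeq promoters. CAGGTG was found in 3 of these 6 (Pigr, Cr2 and Cd79a) and in 17.2% of all promoters, and GGAAGT in 2 of 6 (Cr2 and Cd79a) and in 19.7%, searching both strands of the same 250 bases. The octamer ATTTGCAT, the site of Oct factors and their partner Pou2af1, was in 0 of 6 and in 1.6% of all promoters, and the κB consensus was in 0 of 6 and in 5.0%. No match says only that these letters are not in this window.

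The genotype labels could not be checked against Nfkb1, for which the annotation named 0 probe sets. Of the 26 measured B cell receptor and surface genes, none was at or below the low-signal limit in any array. This limit is a log2 signal of 4.37 that marks the 20th percentile of an array, and passing it is not a detection call. The lowest signals were 5.33 for Fcrla and 5.53 for Cd37, below the median probe set at 6.74. Ms4a1 and Cd79b were at 8.13 and 8.32 or more in every lung. Some arrays stood apart. WT-Air array 3 had the highest signal of all 12 arrays for 8 of the 9 members, all but Pigr, and also carried the fast muscle myosin Myh4 at a log2 signal of 12.31, against 0.67 to 7.94 in the other arrays. Nfkb1KO-O3 array 2 had the lowest signals of Cd79a, Cd79b, Ms4a1, Mzb1 and Pou2af1. Nfkb1KO-Air array 1 had a median signal of 180.1 before normalisation, against 99.1 to 121.2 elsewhere. In whole lung, fewer cells of a type and less RNA per cell cannot be told apart.

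Jchain was lower in Nfkb1-deficient lung, and none of the other 8 genes was called for genotype. Averaged over air and O3, Jchain was 9.7-fold lower in Nfkb1KO than in WT mice, and it was the only 1 of the 9 genes that passed the test for genotype (adjusted p = 0.012). Over all genes, 1.98% were called in this comparison and 0.746% were called lower. Surface B cell genes and Mzb1, a chaperone of antibody assembly in the endoplasmic reticulum, were within 1.41-fold of WT.

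The deposited Jchain signals were 2375, 433 and 7554 in WT-Air and 412, 880 and 317 in WT-O3, and 288, 279 and 59.5 in Nfkb1KO-Air and 44.1, 68 and 69.3 in Nfkb1KO-O3. Every WT lung was therefore above every Nfkb1-deficient lung, a separation of 6 against 6 arrays in this direction that 0.489% of all genes showed. On the normalised log2 scale the group means (± SD, n = 3) were 10.97 ± 2.07 in WT-Air, 8.93 ± 0.77 in WT-O3, 7.27 ± 1.22 in Nfkb1KO-Air and 6.07 ± 0.38 in Nfkb1KO-O3. In this order, the values of WT-Air and WT-O3 overlapped, those of WT-O3 and Nfkb1KO-Air did not, and those of the 2 knockout groups overlapped.

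The log2 difference between genotypes was -3.28 ± 0.59 (SE, 95% interval -4.57 to -1.99) over both exposures. In air alone it was -3.7 ± 0.84 (13-fold, adjusted p = 0.11), and after O3 alone it was -2.85 ± 0.84 (7.23-fold, adjusted p = 0.21), so that neither passed the test over all genes with 3 arrays a group, although the groups did not overlap in either. The genotype difference after O3 minus that in air was 0.85 ± 1.19 (adjusted p = 0.93), with an interval of -1.73 to 3.42 that leaves room for a larger or a smaller effect after O3. Without WT-Air array 3, the brightest lung, the difference over both exposures was -2.8 on the log2 scale. Over the 24 other settings of the analysis it lay between -3.81 and -2.8 and was called in 23, the exception being a fit without a trend in the spread (adjusted p = 0.059). Tests of other kinds gave the call less often. Its probe set, fitted beside all other probe sets, was called in 14 of 17 other settings (adjusted p up to 0.087), and the genotype term of the analysis of variance named in the study's methods gave an adjusted p of 0.1.

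**Figure D1:**
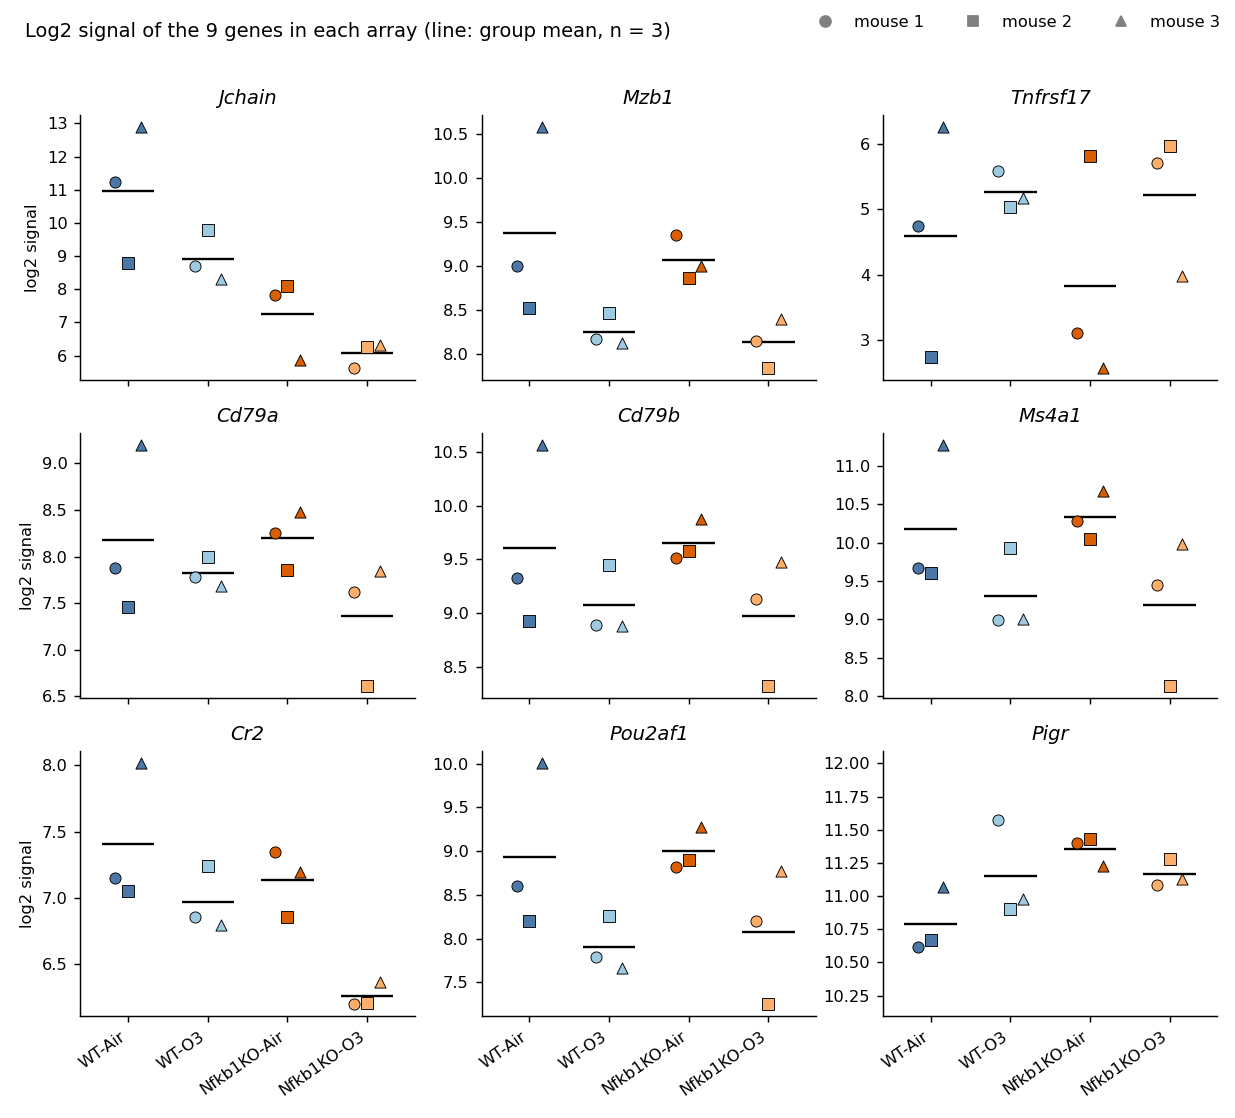
Normalised log2 signal (vertical axis, a separate range for each gene) of the 9 genes for every array, arranged by group. Points are single mice and lines are group means (n = 3). Jchain is the gene in which all 6 WT arrays lie above all 6 Nfkb1KO arrays, and WT-Air array 3 (dark blue triangle) is the highest point for every gene but Pigr.

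The surface genes gave a different picture. Cd79b had signals of 644, 479 and 1492 in WT-Air and 475, 699 and 469 in WT-O3, and 732, 777 and 943 in Nfkb1KO-Air and 558, 307 and 710 in Nfkb1KO-O3. These ranges overlapped between genotypes in air and after O3. Its log2 difference over both exposures was -0.03 ± 0.26, with a 95% interval of -0.59 to 0.54 (adjusted p = 0.98). For its partner Cd79a the difference was -0.22 ± 0.29 (interval -0.85 to 0.4, adjusted p = 0.79). Ms4a1, which encodes the B cell surface protein CD20, differed by 0.01 ± 0.35 (interval -0.74 to 0.76, adjusted p = 0.99), and its second probe set by 0.16 ± 0.34 (adjusted p = 0.9). Pou2af1, the coactivator of Oct factors in B cells, differed by 0.12 ± 0.31 (interval -0.55 to 0.78, adjusted p = 0.91). The intervals of these 4 genes, both Ms4a1 probe sets included, reach differences of at most 0.9 in size, whereas that of Jchain begins at -1.99.

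Among the remaining members, Cr2 encodes complement receptor 2, which lowers the threshold for B cell activation and is also displayed by follicular dendritic cells. Its signals after O3 were 106, 140 and 113 in WT and 66.9, 65.5 and 72 in Nfkb1KO mice, which did not overlap, but in air they ranged from 124 to 269 in WT and from 113 to 232 in Nfkb1KO lungs and did. The log2 difference was -0.71 ± 0.28 after O3 (adjusted p = 0.42) and -0.49 ± 0.2 over both exposures (adjusted p = 0.31). Mzb1 differed by -0.21 ± 0.28 over both exposures (interval -0.81 to 0.39, adjusted p = 0.8). Tnfrsf17 encodes BCMA, the receptor through which plasma cells receive the survival signal APRIL. It was at or below the low-signal limit in 4 of 12 arrays, with signals from 6.16 to 82.8 in all, and no fold is given for it (adjusted p = 0.85 over both exposures).

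In air, 0 of 9 members were called for genotype, where 0.342% of all genes were, and 2 of 9 had an unadjusted p under 0.05 (Jchain and Pigr), against 11.3% of all genes. After O3, 0 of 9 were called against 0.723%, and 2 of 9 (Jchain and Cr2) had an unadjusted p under 0.05 against 9.43%. Groups did not overlap for 2 of 9 members in air (Jchain lower, Pigr higher), against 13.9% of all genes, and for 2 of 9 after O3 (Jchain and Cr2, both lower), against 19.1%. The median log2 difference of the 9 genes was 0.01 in air and -0.12 after O3, and that of all genes was -0.01 and 0. The median in air rested on WT-Air array 3, without which it was 0.53 with 1 of 9 genes below 0, and that after O3 was -0.05 without Nfkb1KO-O3 array 2.

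**Figure D2:**
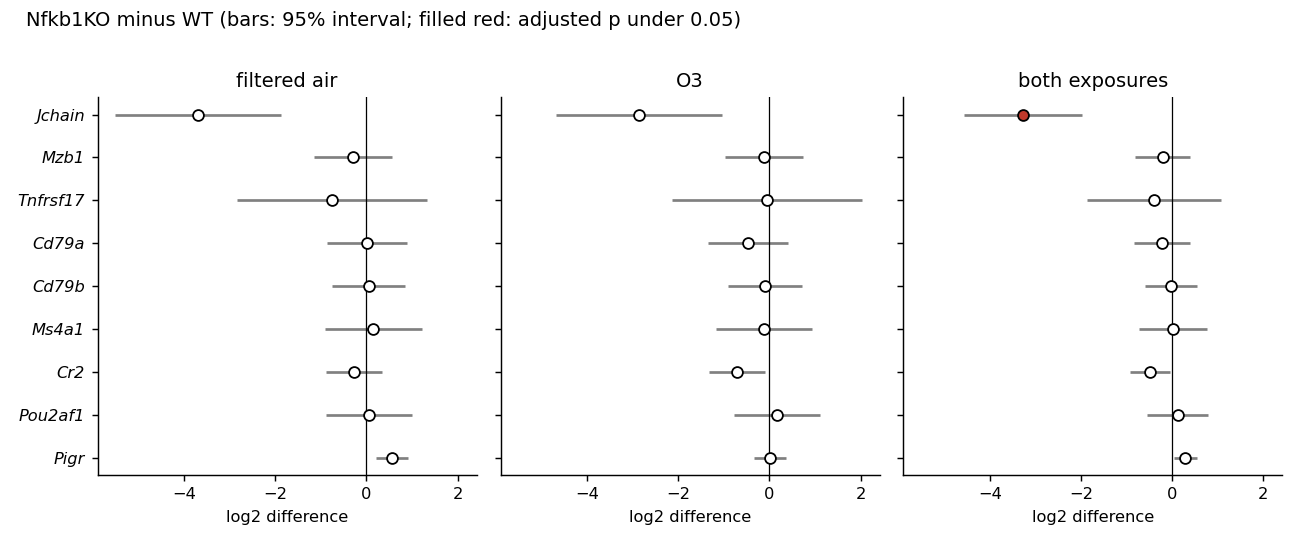
Log2 difference Nfkb1KO minus WT (horizontal axis) for the 9 genes in air, after O3 and over both exposures, with 95% intervals from limma. Jchain over both exposures is the only filled point (adjusted p = 0.012), and the intervals of Cd79a, Cd79b, Ms4a1, Pou2af1 and Mzb1 span 0 in every panel.

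Jchain and the surface genes also parted within single arrays. Taking the log2 signal of Jchain minus the mean of Cd79a, Cd79b and Ms4a1 gave 2.26, 0.12 and 2.55 in WT-Air and 0.14, 0.66 and -0.22 in WT-O3. The same quantity was -1.52, -1.05 and -3.81 in Nfkb1KO-Air and -3.1, -1.42 and -2.79 in Nfkb1KO-O3. All 6 WT lungs were above all 6 Nfkb1-deficient lungs on this measure, which was chosen after the values were seen and is given with no test. Mzb1 set against the same mean did not separate the genotypes, running from -0.66 to 0.23 in WT and from -0.7 to 0.15 in Nfkb1KO lungs.

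Across the 12 arrays, Cd79a, Cd79b, Ms4a1 and Pou2af1 rose and fell together, with Pearson correlations of 0.89 to 0.97 between pairs, and of 0.82 to 0.97 without WT-Air array 3. Adding Mzb1 and Cr2 widened the range to 0.7 to 0.97, and to 0.48 to 0.97 without WT-Air array 3. Jchain correlated with these 6 genes at 0.39 to 0.78, and at -0.05 to 0.61 without WT-Air array 3. These values include the genotype difference of Jchain. For deviations from the group means, Jchain correlated with the 6 genes at 0.42 to 0.76, and the 6 with each other at 0.77 to 0.99. The 5 genes most like Cd79b in pattern, among the 8779 non-member genes brighter than the median gene, were Fcmr, the receptor for IgM (0.964), Bank1, a scaffold of B cell receptor signalling (0.958), Ly6d (0.958), Dock10 (0.938) and the heavy chain variable gene Ighv14-2 (0.931). Those most like Jchain were Lsm3 (0.913), Invs (0.911), Igf1 (0.907), Vnn1 (0.894) and Nop10 (0.883), of which none is an immunoglobulin or B cell gene. Only immunoglobulin genes brighter than the median gene, at a log2 signal of 8.42, could be found. These were Ighm, Igkv8-30, Ighv14-2 and Igha, and the absence of dimmer ones was set by that cut. Each gene entered this search through 1 probe set only. The _s_at probe set of Ighm described below, which did not stand for its gene, was therefore not among those searched. All these points share the same 12 lungs and the same 4 groups.

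**Figure D3:**
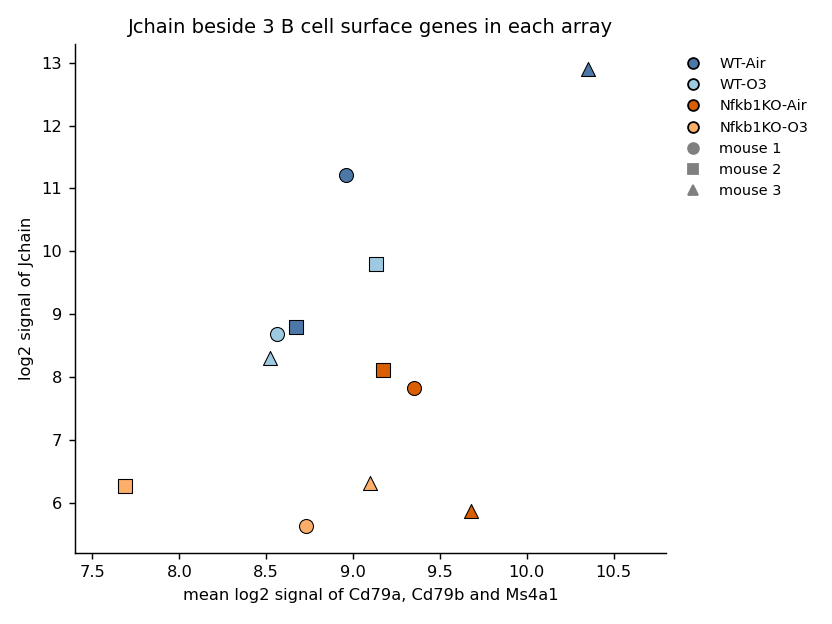
Log2 signal of Jchain (vertical axis) against the mean log2 signal of Cd79a, Cd79b and Ms4a1 (horizontal axis) in each of the 12 arrays, coloured by group and with 1 symbol shape per mouse number. The Nfkb1KO arrays (orange) span 7.69 to 9.68 on the horizontal axis, against 8.52 to 10.35 for the WT arrays, but all lie below the WT arrays (blue) on the vertical axis.

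Immunoglobulin transcripts, the product that J chain joins, were examined beside it. The annotation held 56 immunoglobulin probe sets, and 17 of them were brighter than the median probe set. All 17 had a lower mean in Nfkb1KO than in WT lungs over both exposures. They were chosen by mean signal over all arrays, which near the cut can favour probe sets high in WT lungs. The count therefore cannot by itself show a shared direction. Among the dimmer probe sets the log2 difference went both ways, from -2.79 (Igkv15-103) to 1.06 (an Iglv1 probe set). Every probe set was also fitted as its own feature, a setting in which 0.455% of all probe sets were called lower. Only 1 of the 13 bright probe sets with a single symbol passed that test. This was the _s_at probe set of Ighm, the IgM heavy chain, at 8851, 1035 and 18855 in WT-Air, 1195, 4840 and 1141 in WT-O3, 563, 1022 and 743 in Nfkb1KO-Air and 338, 306 and 340 in Nfkb1KO-O3. No WT lung was below the highest Nfkb1-deficient lung on it, although the nearest lungs, WT-Air array 2 at 1035 and Nfkb1KO-Air array 2 at 1022, lay close together. The log2 difference was -2.66 ± 0.57 (6.32-fold lower, adjusted p = 0.042). It was called in 4 of 17 other settings, over which the difference stayed between -3.25 and -2.24 and the adjusted p reached 0.16.

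A second bright Ighm probe set, with the suffix _a_at, differed by -1.01 ± 0.48 (adjusted p = 0.45) and overlapped between genotypes. Immunoglobulin genes form families with near-identical stretches, and a probe set of either kind can take RNA from more than 1 of them, so that which transcripts these signals count is uncertain. The 3 brightest probe sets, each annotated with 5 κ light chain symbols including the κ constant gene Igkc, differed by -0.44, -0.43 and -0.83 on the log2 scale and were not tested. Igha, the IgA heavy chain, varied from mouse to mouse, and its _a_at probe set gave 1546, 1199 and 820 in WT-Air, 1494, 177 and 747 in WT-O3, 303, 2140 and 64.2 in Nfkb1KO-Air, and 85.5, 39.8 and 41.5 in Nfkb1KO-O3. Nfkb1KO-Air array 2 had the highest Igha signal of all 12 lungs, while the other 5 Nfkb1-deficient lungs ranged from 39.8 to 303. Its log2 difference over both exposures was -2.6 ± 0.7 (adjusted p = 0.12), and without that array it was -3.28 (adjusted p = 0.0091), which is 1 of the 17 other settings, over which the adjusted p ran from 0.0091 to 0.29. The other 2 bright Igha probe sets differed by -1.6 ± 0.58 and -1.34 ± 0.47 (adjusted p = 0.28 and 0.27). By gene, 0 of 18 measured immunoglobulin genes were called by limma over both exposures. Of these, 6 had an unadjusted p under 0.05, against 13.2% of all genes. A difference below 0 was seen in 17 of 18 (51.2% of all genes). The median was -0.55, against -0.01 for all genes, and was -0.23 without WT-Air array 3.

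**Figure D4:**
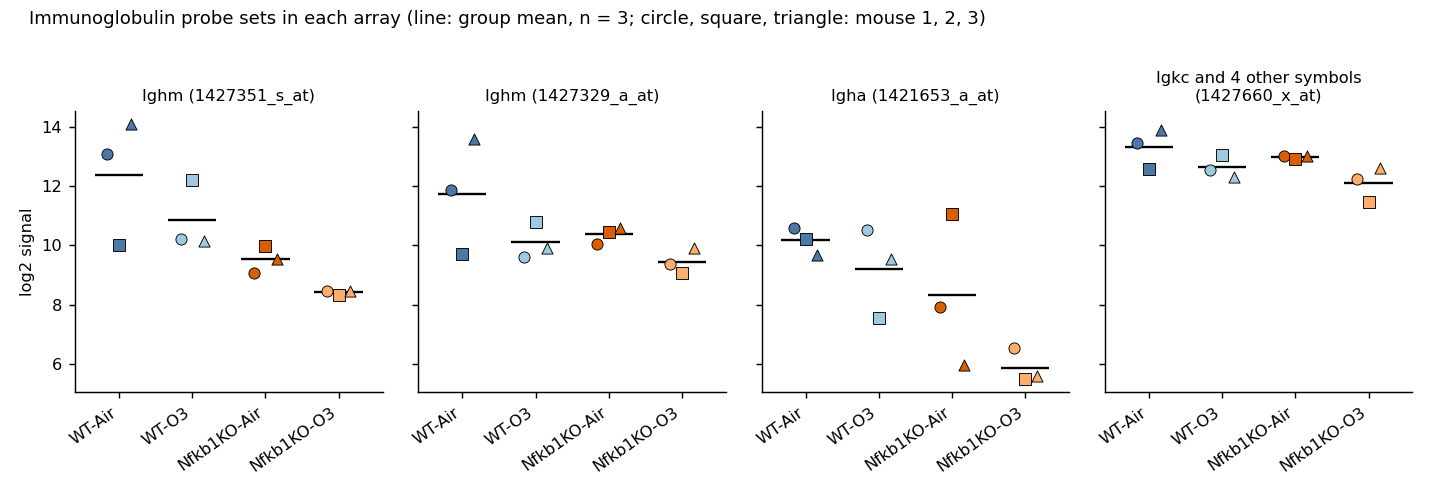
Log2 signal (vertical axis) of 4 immunoglobulin probe sets in each array, by group, with the group mean as a line (n = 3). The first Ighm probe set separates WT from Nfkb1KO arrays, the second and the κ probe set overlap, and Igha shows 1 high Nfkb1KO-Air array.

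Few other genes of the B cell and plasma cell programme were called for genotype. Of 26 measured B cell receptor and surface genes, 1 was called higher in Nfkb1KO lungs over both exposures and 0 lower, with a median log2 difference of 0.02 that was 0.22 without WT-Air array 3 and 0.15 without Nfkb1KO-O3 array 2. Over all genes 1.23% were called higher. The called gene was Pik3ap1, an adaptor that links the receptor to PI3 kinase (0.48 ± 0.11, adjusted p = 0.042, called in 9 of 24 other settings, and -0.19 where the mean of its probe sets was taken). Of 17 measured B lineage transcription factors, 0 were called by limma and 3 had an unadjusted p under 0.05, with a median of -0.01. Of 24 measured plasma cell and antibody secretion genes, 1 was called lower, Jchain itself, and 0 higher, with a median of -0.06. In this list 7 had an unadjusted p under 0.05 by limma, against 13.2% of all genes, and 18 were below 0, against 51.2%. All 6 WT lungs were above all 6 Nfkb1-deficient lungs for 2 of the 24, against 0.489% of all genes. Besides Jchain this was Hspa5, by a narrow margin, at log2 signals of 13.73 to 13.87 in WT and 13.52 to 13.68 in Nfkb1KO lungs. Markers of other leukocytes did differ, as 8 of 9 measured NK cell markers and 3 of 8 neutrophil markers were called higher in Nfkb1KO lungs, while 0 of 16 T cell markers were called in either direction by limma (2 at an unadjusted p under 0.05). The part of these shifts in the Jchain difference was not tested.

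Factors that draw B cells and plasma cells to a tissue or keep them alive were also read. Cxcl12, the stromal chemokine that retains plasma cells in their niches, was lower in Nfkb1KO lungs over both exposures by -0.53 ± 0.11 on the log2 scale (1.44-fold, adjusted p = 0.031, called in 13 of 24 other settings). Its signals were 2539, 2530 and 2863 in WT-Air, 3141, 3160 and 3556 in WT-O3, 2122, 2046 and 1925 in Nfkb1KO-Air, and 1931, 1550 and 2682 in Nfkb1KO-O3, so that a single knockout lung, Nfkb1KO-O3 array 3, reached the WT range. Il6, a cytokine that supports plasma cells among many other roles, was called higher (adjusted p = 0.024, and in 18 of 24 other settings). Its signals of 6.79, 16.9 and 20.3 in WT-Air were all at or below the low-signal limit, against 38.1 to 60.5 in Nfkb1KO-Air, and no fold is given for it. Cxcl13, the chemokine that draws B cells into follicles, differed by -1.8 ± 0.43 (adjusted p = 0.057), with signals of 1077, 241 and 2196 in WT-Air and 303.8 to 354.5 in WT-O3, against 93.4 to 156.5 in Nfkb1KO-Air and 138.5 to 392.4 in Nfkb1KO-O3. The genotypes were apart in air and overlapped after O3. The 8 measured lymph node stroma and follicular dendritic cell markers, a list that holds Cxcl13 and Cr2, summed to 1280 to 3191 in WT-Air and 1123 to 1436 in the other groups, with 0 of 8 called by limma over both exposures and 3 at an unadjusted p under 0.05. The part of such tissue in the B cell signals of WT-Air was not tested. Of 4 measured BAFF and APRIL ligands and receptors, 0 were called by limma and 0 had an unadjusted p under 0.05, and Tnfsf13b, which encodes BAFF, differed by -0.03 ± 0.11 (adjusted p = 0.94).

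Pigr, the epithelial receptor, followed neither Jchain nor the B cell genes. Its signals were 1562, 1652 and 2114 in WT-Air, 3097, 1941 and 2047 in WT-O3, 2421, 2731 and 2390 in Nfkb1KO-Air, and 2196, 2513 and 2292 in Nfkb1KO-O3. In air, every Nfkb1-deficient lung was above every WT lung, and after O3 the genotypes overlapped. The log2 difference in air was 0.56 ± 0.16 (1.48-fold, adjusted p = 0.21), and after O3 it was 0.01 ± 0.16 (adjusted p = 0.99). The genotype by O3 interaction was -0.55 ± 0.23 (unadjusted p = 0.034, adjusted p = 0.81). It was the smallest p of the 9 members in that comparison, in which 0 of 9 were called against 0.0342% of all genes, and 1 of 9 had an unadjusted p under 0.05 against 6.06%. The second Pigr probe set differed by 0.41 ± 0.32 in air and overlapped between genotypes, so the separation rested on 1 of its 2 probe sets. Correlations of Pigr with the other 8 members ran from -0.39 to 0.2. The genes most like it in pattern were Phf20 (0.883), Usp32 (0.875), Alkbh5 (0.844), Galnt15 (0.832) and Cmtr1 (0.829). Of 15 measured genes of airway secretory epithelium, where Pigr is made, 1 was called higher in Nfkb1KO lungs over both exposures, with a median of 0.2. This was Cyp2b10, a cytochrome P450 of club cells (0.41 ± 0.09, adjusted p = 0.045, called in 6 of 24 other settings). An unadjusted p under 0.05 was seen in 7 of 15, against 13.2% of all genes. In air 0 of 15 were called, and 6 had an unadjusted p under 0.05 against 11.3% of all genes. Knockout lungs in air were wholly above WT for 6 of 15 and wholly below for 1, against 6.63% and 7.26% of all genes. The median was 0.27 in air and 0.2 after O3.

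O3 was accompanied by lower Mzb1, Cr2 and Pou2af1 signals over both genotypes, although no member passed the test in either genotype alone. In WT mice 0 of 9 members were called against 5.4% of all genes, and 4 of 9 had an unadjusted p under 0.05 (Jchain, Pigr, Mzb1 and Pou2af1) against 19.7%. In Nfkb1KO mice 0 of 9 were called against 6.18%, and 3 of 9 had an unadjusted p under 0.05 (Ms4a1, Mzb1 and Cr2) against 21.5%. In Nfkb1KO mice, the O3 lungs lay wholly below the air lungs for 6 of 9 members (Cd79a, Cd79b, Ms4a1, Mzb1, Cr2 and Pou2af1), where 12.3% of all genes did so, and in WT mice for 1 of 9 (Mzb1), where 14.1% did. These are the 6 genes that vary together, so their counts are not independent of each other. Some of the knockout separations were near ties. The nearest air and O3 lungs had log2 signals of 7.86 and 7.85 for Cd79a, 9.51 and 9.48 for Cd79b, 8.82 and 8.77 for Pou2af1, and 10.05 and 9.98 for Ms4a1. The gaps were wider for Mzb1 (8.86 and 8.4) and Cr2 (6.86 and 6.37). The median log2 O3 difference of the members was -0.53 in WT and -0.88 in Nfkb1KO mice, and that of all genes was -0.03 and -0.01. Both moved with 1 array, the WT median to -0.13 without WT-Air array 3 and the Nfkb1KO median to -0.52 without Nfkb1KO-O3 array 2.

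Averaged over both genotypes, a comparison added after the values were seen, 3 of 9 members were called lower after O3, where 7.51% of all genes were called lower. Mzb1 had signals of 516, 357 and 1510 in WT-Air and 279, 344 and 279 in WT-O3, and 666, 470 and 515 in Nfkb1KO-Air and 275, 216 and 323 in Nfkb1KO-O3. All 6 O3 lungs were below all 6 air lungs, as they were for 2.99% of all genes. Its log2 difference was -1.03 ± 0.28 (2.04-fold lower, adjusted p = 0.026), and it was -0.73 (adjusted p = 0.01) without WT-Air array 3.

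Pou2af1 was at 393, 285 and 1020 in WT-Air, 210, 298 and 202 in WT-O3, 485, 483 and 627 in Nfkb1KO-Air and 285, 139 and 422 in Nfkb1KO-O3, and fell by 0.98 ± 0.31 (1.97-fold, adjusted p = 0.048). Cr2 fell by 0.66 ± 0.2 (1.58-fold, adjusted p = 0.044), from 113 to 269 in air to 65.5 to 140 after O3. For both genes the air and O3 lungs overlapped over the 12 arrays. Ms4a1 differed by -1.02 ± 0.35 (adjusted p = 0.068), and its second probe set was just past the threshold in the probe set fit (-1.12 ± 0.34, adjusted p = 0.049), where 5.25% of probe sets were called lower. Jchain differed by -1.62 ± 0.59 (adjusted p = 0.088), Cd79b by -0.61 ± 0.26 (adjusted p = 0.15) and Cd79a by -0.6 ± 0.29 (adjusted p = 0.19). Pigr differed by 0.09 ± 0.12 (interval -0.17 to 0.34, adjusted p = 0.68).

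These O3 calls stood close to the threshold. The count of called members was 1 without WT-Air array 3 or without WT-O3 array 2, 5 without WT-Air array 2, and 0 without WT-O3 array 1 or 3, Nfkb1KO-Air array 1 or Nfkb1KO-O3 array 1 or 2, and median centring in place of quantile normalisation left 0 called. That scaling moved the median difference of all genes from -0.02 to 0.13 and also left 0 of the B cell surface genes and 0 of the B lineage transcription factors described next called. Mzb1 was called in 17, Cr2 in 12 and Pou2af1 in 7 of 24 other settings, and their differences stayed below 0 in all of them.

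**Figure D5:**
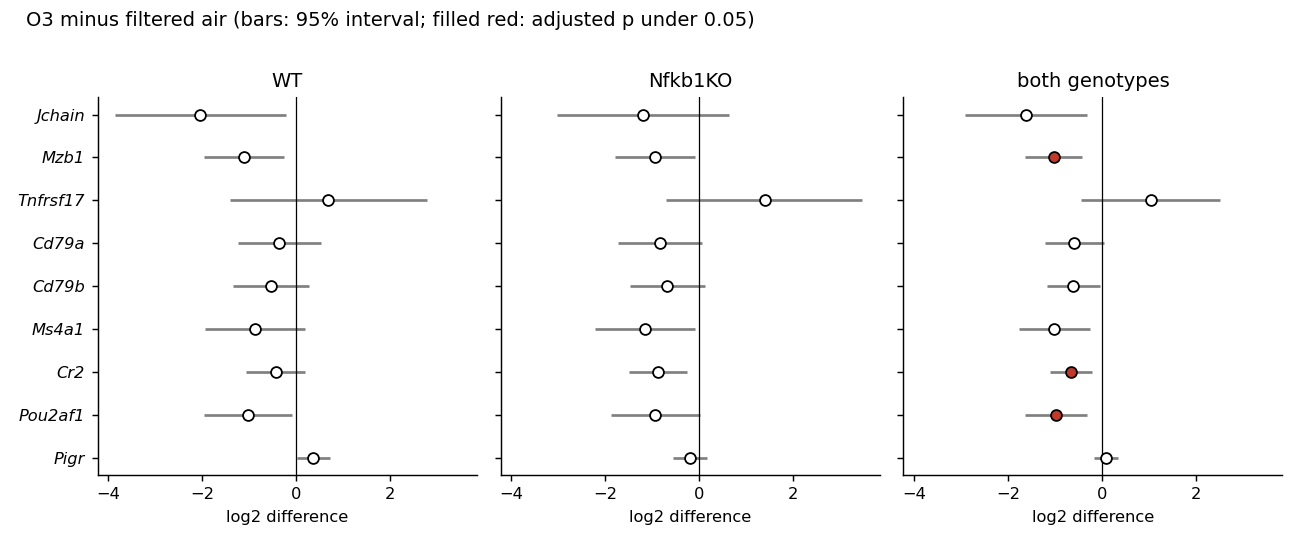
Log2 difference O3 minus filtered air (horizontal axis) for the 9 genes in WT mice, in Nfkb1KO mice and over both genotypes, with 95% intervals from limma. Filled points passed the test (adjusted p under 0.05), which were Mzb1, Cr2 and Pou2af1 over both genotypes, and Pigr and Tnfrsf17 are the members above 0 in that panel.

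The same direction appeared in the wider B cell programme, whose lists hold some of the members and genes that vary with them. It was not particular to B cell lists. Over both genotypes, 13 of 16 T cell, 9 of 9 NK cell and 8 of 9 plasmacytoid dendritic cell markers were also below 0. Their medians were -0.24, -0.35 and -0.41. Of 8 alveolar macrophage markers 2 were below 0, with a median of 0.34. The B cell counts that follow come from the same lungs and are not independent of the member result. Of 26 measured B cell receptor and surface genes, 25 had an O3 difference below 0 over both genotypes, where 52.8% of all genes did, with a median of -0.52 against -0.02. Without WT-Air array 3, 23 of 26 were below 0, with a median of -0.34. Calls were fewer, at 3 lower and 0 higher. They were the kinase Syk (-0.6 ± 0.16, adjusted p = 0.023) and the phospholipase Plcg2 (-0.61 ± 0.13, adjusted p = 0.0091), both of which also act in other leukocytes, and Cr2. Of 17 B lineage transcription factors, 6 were called lower and 0 higher, against the 7.51% of all genes called lower, with a median of -0.36. The count was 3 without WT-Air array 3 and also without Nfkb1KO-O3 array 2. Foxo1 (-0.52 ± 0.08, adjusted p = 0.0012), Bach2 (-0.52 ± 0.1, adjusted p = 0.0035) and Spib (-0.85 ± 0.25, adjusted p = 0.039) were among them, as were Irf8, Prdm1 and Pou2af1. Pax5 and Ebf1, on the same list, were not called. Irf8 and Spib are also on the plasmacytoid dendritic cell list. Foxo1 was not low on Nfkb1KO-O3 array 2, which had the lowest Cd79a, Cd79b and Ms4a1. Its log2 signal there was 9.99, against 9.91 and 9.96 on the other arrays of that group. Foxo1 and Bach2 were called in 22 and Spib in 11 of 24 other settings, and the Foxo1 difference was 0.06 where the mean of its probe sets was taken.

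The plasma cell and antibody secretion list moved both ways after O3, with 5 called higher and 7 lower of 24, where 7.7% of all genes were called higher and 7.51% lower, and a median of -0.05. With arrays centred by median the counts were 3 higher and 0 lower. Those called higher were Fkbp11, a folding enzyme of the secretory pathway (1.24 ± 0.19, 2.35-fold, adjusted p = 0.001), Ssr4, Ell2, Herpud1 and Sdc1. Those called lower were Mzb1, Pdia4 (-0.5 ± 0.09, adjusted p = 0.0037), Hsp90b1, Creld2, Derl3, Tent5c and Prdm1. Most of these genes serve protein folding and export in every secretory cell, and Sdc1 is also abundant on epithelium. The 18 immunoglobulin genes had 0 called by limma and 5 at an unadjusted p under 0.05, where 28.9% of all genes were. Of the 18, 15 were below 0, against 52.8% of all genes. Their median was -0.7, which was -0.36 without WT-Air array 3.

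Other values moved with O3 as well. The 16 measured T cell markers summed to 3272 to 3793 in WT-Air and 2526 to 2801 in WT-O3, and to 3196 to 3792 in Nfkb1KO-Air and 2590 to 3586 in Nfkb1KO-O3, with 1 of 16 called lower (Thy1, -0.79 ± 0.11, adjusted p = 5.2e-04). Cd4 was at or below the low-signal limit in 10 of 12 arrays. The poly-A control transcripts added during labelling had a mean log2 signal of 8.68 to 9.08 on the air arrays and 7.97 to 8.69 on the O3 arrays. The 3′ minus 5′ difference of the Gapdh control probe sets was -0.36 to -0.1 in air and -0.55 to -0.37 after O3. Their part in the O3 differences was not tested.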

How the data were processed

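Left lung RNA from 12 mice, 3 per group, was measured on Affymetrix Mouse Genome 430 2.0 arrays, with 1 mouse per array. The deposited table held MAS5 signal intensities, not on a log scale, from Affymetrix Expression Console, which the authors scaled to a trimmed mean of 500 (versions not given in the sources used here). Groups came from the sample labels. After 64 control probe sets were set aside, values were raised to at least 1, converted to log2 and quantile normalised. The 42559 probe sets that exceeded the 20th percentile on any array were kept, and of a gene's probe sets the one with the highest mean stood for it. limma 3.58.1 (R 4.3.3) was fitted to all 12 arrays with 1 mean per group and a trend in the spread, and p-values were adjusted over 17569 genes (Benjamini-Hochberg, called under 0.05). Errors are standard errors of that fit unless named SD, and n is 3 arrays a group. An exact test of 3 against 3 arrays cannot go below 0.1. Individual probe sets were fitted the same way over 33386 probe sets. Precision is limited by how many arrays there were.

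The named genes were the 9 members, from each gene list the called genes and up to 4 with the smallest p, and the 5 genes most correlated with Jchain, Cd79b and Pigr. Not every gene the rule names is printed. The members, lists and rule were chosen with earlier results of these data known. Lists of plasmacytoid dendritic cell, alveolar macrophage, thymocyte, skeletal muscle and lung markers were also counted. Promoters were taken from RefSeq (GRCm38.p6). The fit was tested on simulated data with known changes. Alternatives covered normalisation, floor, filter, probe set choice, spread, array weights, a replicate block, arrays left out and the tests named in the study's methods.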

Additional observations from a re-analysis of the deposited data

How the results depend on the processing

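The direction of the Jchain difference between genotypes over both exposures held under all 24 other settings and its call under 23, but its probe set was called in 14 of 17 settings of the probe set fit and its adjusted p was 0.1 in the methods' analysis of variance. The count of members called for genotype over both exposures was 1 and became 0 without a trend in the spread, and it was 1 to 1 as each array was left out. For genotype in air the count was 0, and it was 1 with array weights, 1 by the methods' t-test at an unadjusted p under 0.05 (Pigr) and 0 to 1 with each array left out (1 without WT-Air array 2, Jchain). For genotype after O3 it was 0, and 1 with array weights or with only the groups of the comparison, and 0 to 0 with each array left out. For O3 in WT it was 0, and 0 to 2 with arrays left out. For O3 in Nfkb1KO it was 0, and 1 with no further normalization or with array weights, and 0 to 1 with arrays left out. For O3 over both genotypes it was 3, and median centring of the arrays gave 0. It was 1 without a trend in the spread, 1 without WT-Air array 3 and Nfkb1KO-Air array 1 together, and 0 to 5 with each array left out. The cause of these moves was not tested. The interaction count was 0 throughout.

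The replicate numbers did not pair the mice, since the deviations of 18 same-numbered pairs of arrays correlated at -0.17 to 0.11. With the replicate number as a block, Jchain over both exposures was called (adjusted p = 0.036), the count for O3 over both genotypes was 2 and the counts of the other comparisons were the same. The methods' t-test in air gave 1182 genes at an unadjusted p under 0.05 and 0 after Benjamini-Hochberg adjustment. The genotype term of the methods' analysis of variance gave 2241 and 198, with Jchain and Cr2 among the former and 0 members among the latter. Over single members, 1407 values kept direction and call, 83 uncalled values changed sign, 14 gained and 37 lost a call, and 0 called values were reversed. The comparisons over all 4 groups could not be fitted with only some of the groups.

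Limits are the 3 mice a group, the signals of Tnfrsf17 near the low limit, and the related sequences among immunoglobulin genes.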

Other observations

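The marker lists counted beside the B cell genes gave these further values. For genotype over both exposures, Bst2 was the 1 of 9 plasmacytoid dendritic cell markers called, and it was higher in Nfkb1KO lungs. Alveolar macrophage markers had 1 called higher and 1 lower of 8 (Plet1 and Marco), and lung markers had 1 called higher of 10 (Foxj1). The calls of Plet1 and Foxj1 each held in 6 of 24 other settings and were lost without WT-Air array 3 or without Nfkb1KO-O3 array 2. By limma, 0 of 8 thymocyte and 0 of 10 skeletal muscle markers were called, with 1 and 0 at an unadjusted p under 0.05.

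For O3 over both genotypes, 3 of 9 plasmacytoid dendritic cell markers were called lower (Bst2, Irf8 and Spib), of which Irf8 and Spib are also on the list of B lineage transcription factors. Of 9 NK cell markers 3 were lower, of 8 alveolar macrophage markers 2 were higher (Marco and Chil3), and of 8 neutrophil markers 0 were called by limma, with 1 at an unadjusted p under 0.05. The thymocyte list had 1 called lower (Cd1d1), the muscle list 1 lower (Ckm) and the lung list 4 higher and 1 lower. Without WT-Air array 3 the thymocyte and muscle lists had 0 called and the lung list 2 higher, and without Nfkb1KO-O3 array 2 the plasmacytoid dendritic cell list had 1 called. Among airway secretory genes, 2 were higher (Cyp2b10 and Krt19) and 3 lower, of which the mucin gene Muc5b had the widest difference on the log2 scale (-2.25 ± 0.41, adjusted p = 0.0034). Of the chemokine and homing genes, 2 were higher (Il6 and Ltbr). Of 4 BAFF and APRIL genes limma called 0, with 1 at an unadjusted p under 0.05. Over all genes, 28.9% had an unadjusted p under 0.05 for O3 over both genotypes.

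The 10 skeletal muscle markers summed to signals of 1299, 5895 and 36768 on the WT-Air arrays, 553 to 1087 after O3 in WT, 1405 to 2128 in Nfkb1KO-Air and 583, 2053 and 9065 in Nfkb1KO-O3.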
